A study of Mus musculus with 12 samples.

Results

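Genes for voltage-gated calcium and sodium channels, hyperpolarization-activated cyclic nucleotide-gated (HCN) channels, transient receptor potential (TRP) channels and the mechanosensitive Piezo channels were followed in 3 mouse small cell lung cancer lines in which the transcription factor Nfib was lowered or raised. They were chosen by symbol, with earlier results of these data known. The rule took features with a single gene name and a symbol of certain families. These families were Cacna1, Cacna2d, Cacnb, Cacng, Scn, Hcn, Trpc, Trpm, Trpv and Piezo, and Scn2a1 was not taken in. This gave 66 genes of 23226 features with a single name. The groups were 16T with an shRNA against Nfib (sh2) set against 16T with a control shRNA (shLuc), KP1 with the same 2 constructs, and KP22 with a vector carrying Nfib cDNA set against KP22 with an empty vector. All lines are Trp53-/-;Rb1-/- and tumor-derived, grow as floating spheres, and are labelled Nfib high (16T and KP1) or Nfib low (KP22). Each of the 6 groups held 2 samples, 12 in all, and a single Nfib shRNA name is given, so an effect of Nfib and of that construct cannot be told apart.

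Voltage-gated calcium channels are built around a pore-forming alpha1 subunit, with alpha2delta and beta subunits that bring it to the membrane and tune its gating. In neuroendocrine cells, calcium entry through them triggers the release of hormone granules. Voltage-gated sodium channels carry the upstroke of the action potential, HCN channels carry the inward current that paces repeated firing, and TRP and Piezo channels pass cations on chemical, thermal or mechanical signals.

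The authors' deposited table held results of a fit, not values per sample: a mean normalized count over all libraries, and for each comparison a log2 fold change, its standard error (SE) and an adjusted p. In bulk RNA of this kind, fewer cells that express a gene and less of its RNA per cell cannot be told apart. The words rose and fell are kept for an adjusted p below 0.05, ± gives the SE, and the value in each sample and the depth of each library are unknown here. Nfib itself, in the authors' deposited table, was at -1.08 ± 0.035 in 16T with the shRNA (47.2% of its control), -1.32 ± 0.035 in KP1 (40.0%) and 1.80 ± 0.036 in KP22 with cDNA (3.49-fold). The headings give no direction, so it was read from Nfib. The 8 neuroendocrine markers examined had means of 5290 to 45597, and they also changed. Higher and lower calls among these numbered 3 and 3 (16T), 5 and 3 (KP1), 2 and 5 (KP22), per the authors' deposited table. Calca (log2 changes 1.31, 0.90, -1.71, same order), Ddc (0.40, 1.02, -0.60) and Syp (0.44, 0.21, -0.86) were higher with the shRNA, lower with cDNA. Insm1 (-0.19, -0.19, 0.47) showed the reverse. A rise on knockdown with a fall on cDNA is thus not particular to channel genes. The 18 markers of leukocytes, fibroblasts, endothelium and airway epithelium summed to a mean of 4413, of which Pdgfra made 2220, and Cd3e and Scgb1a1 were at 0. Among them 3 were called higher and 3 lower in 16T. In KP1 none was higher and 3 were lower, and in KP22 1 was higher and 2 were lower, per the authors' deposited table. Of the 18, 5 had means under 10, and not all were tested in each comparison. Kdr fell in all 3 comparisons (-1.48 ± 0.18, -1.62 ± 0.21 and -1.76 ± 0.16 in 16T, KP1 and KP22). Pdgfrb rose in 16T (2.01 ± 0.38) and fell in KP22 (-1.21 ± 0.38), and Sftpc fell in 16T (-2.07 ± 0.25). The part of these 18 markers in the results below was not tested.

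Of the 66 channel genes, 47 had a mean of at least 10, and 24 a mean of at least 1000. Cacng6 and Trpv5 were at 0. Also under 10 were, among others, Cacna1s, Cacng1, Cacng3, Scn10a, Scn11a, Scn2b, Scn4b, Scn7a, Trpc5, Trpc6, Trpc7, Trpm3, Trpm5, Trpm8, Trpv1 and Trpv3, of 19 such genes with both zeros. For Trpc6 a further exon stretch that was counted apart had a mean of 29.6, against 3.97 for the feature used here. The authors gave an adjusted p to 44 of the genes in 16T and KP1 and to 60 in KP22, where it reached down to lower means. Set per kilobase of counted exon, the level was highest for Cacna2d1 at 3799 mean normalized counts per kb. Cacng7 at 1801, Cacnb3 at 1564 and Trpm7 at 1190 per kb followed. The leading alpha1 genes were Cacna1h at 963 per kb, Cacna1a at 663 per kb and Cacna1b at 626 per kb. Among HCN genes Hcn2 was highest at 938 per kb, and the sodium channel genes were led by Scn3a at 465 per kb. Piezo1 stood at 458 and Piezo2 at 92.1 per kb.

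**Figure D1:**
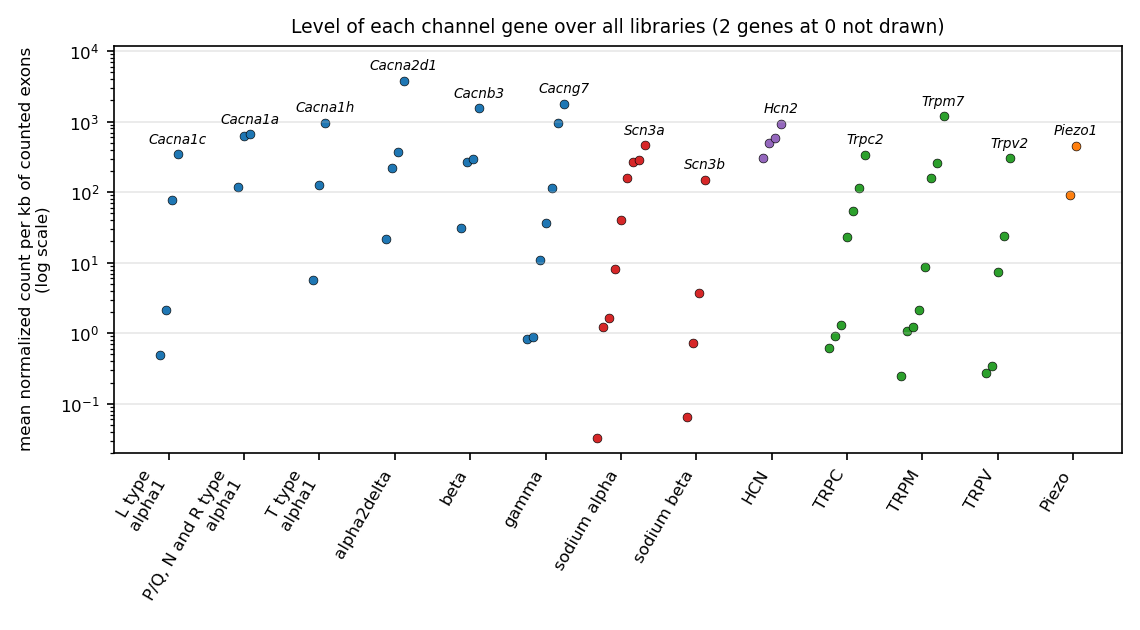
Level of each channel gene, as the mean normalized count over all libraries per kb of its counted exons (log scale), by role group; each point is a gene, the highest of each group is named, and the 2 genes at 0 are not drawn. Cacna2d1 stands highest at 3799 per kb, ahead of Cacng7 at 1801 and Cacnb3 at 1564 per kb.

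With the Nfib shRNA in 16T, 22 of the 44 tested channel genes rose (50.0%), against 20.0% of all tested features, and 6 fell (13.6%), against 25.3%. In KP1 with the shRNA, 13 rose (29.5%, against 17.6% of all features) and 11 fell (25.0%, against 19.6%), of which 6 remained when the Wald score was read against Student's t on 6 degrees of freedom. In KP22 with Nfib cDNA, 10 of 60 rose (16.7%, against 19.5%) and 15 fell (25.0%, against 18.8%). Counting either direction, 28 changed in 16T (63.6%, against 45.3%), 24 in KP1 (54.5%, against 37.2%) and 25 in KP22 (41.7%, against 38.4%). Of the 44 genes tested throughout, 37 were called at least once (84.1%, against 71.5%) and 10 in all 3 comparisons (22.7%, against 15.1%). Channel genes had median log2 fold changes, from the authors' deposited table, of 0.17 (16T), 0.07 (KP1) and 0.02 (KP22), beside -0.05, -0.02 and 0.04 over all tested features. The median mean count of the tested channel genes was 1108, and that of all tested features 1326. Log2 changes of 1 or more were made by 4 genes upwards and 1 downwards in 16T (3.76% and 2.61% of all features), by 5 and 3 in KP1 (2.81% and 3.14%) and by 0 and 11 in KP22 (2.88% and 5.19%). They fell on 18 genes.

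**Figure D2:**
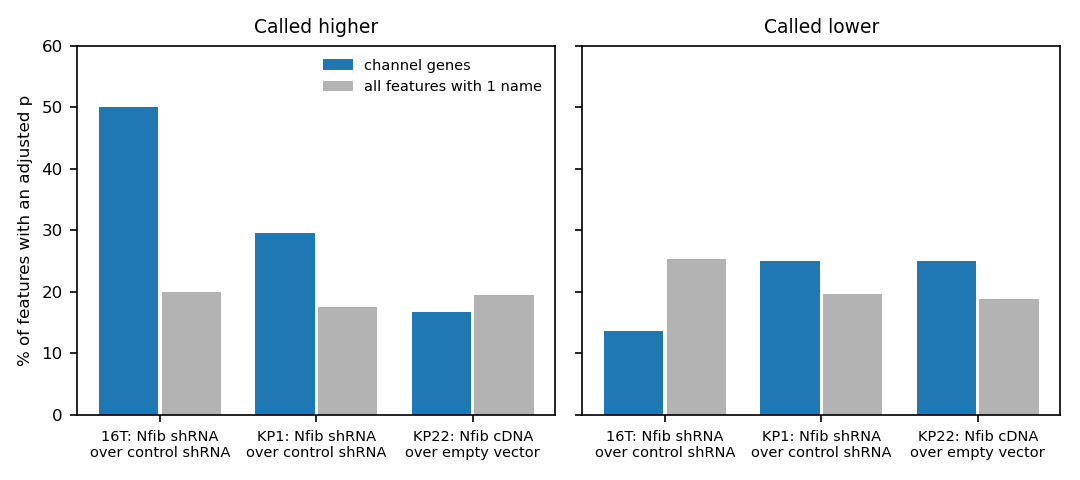
Share of tested features called higher (left) and lower (right) in each comparison, for the channel genes (blue) and all features with a single name (grey), as a percentage on an axis from 0. In 16T with the Nfib shRNA 50.0% of the channel genes were higher, against 20.0% of all features.

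**Figure D3:**
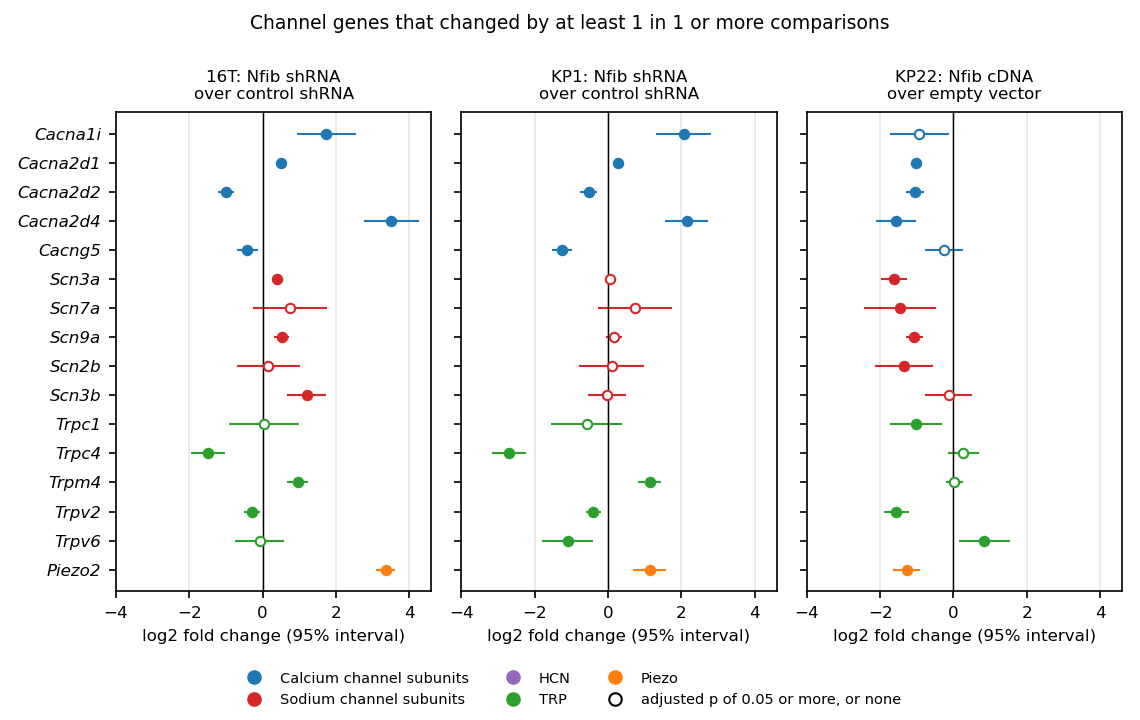
Log2 fold change and its 95% interval in 16T, KP1 (Nfib shRNA over control shRNA) and KP22 (Nfib cDNA over empty vector) for channel genes that changed by at least 1 in a comparison, coloured by family; open points had an adjusted p of 0.05 or more, or none. Cacna2d4 and Piezo2 lie right of 0 in both knockdown lines and left of 0 in KP22.

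The abundant alpha1 genes changed by less than 1 in every comparison, whereas Cacna1i, of low level, changed by more than 1 in both knockdown lines. Cacna1i, which encodes a low-voltage-activated pore of neurons (chromosome 15, 80287238 to 80398292, mm10), had a mean of 56.2. In the authors' deposited table it rose by 1.73 ± 0.41 in 16T (3.32-fold, adjusted p = 0.000118) and by 2.06 ± 0.38 in KP1 (4.17-fold, adjusted p = 6.82e-07). Its value in KP22 in the authors' deposited table was -0.93 ± 0.41, which missed the threshold (adjusted p = 0.0636). The T type gene Cacna1g rose in all 3 comparisons, by 0.46 ± 0.11 in 16T, 0.38 ± 0.11 in KP1 and 0.71 ± 0.18 in KP22, per the authors' deposited table. Cacna1h, the most abundant T type gene, fell in KP1 (-0.34 ± 0.05) and slightly in KP22 (-0.17 ± 0.048), per the authors' deposited table, with -0.05 ± 0.049 in 16T.

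Among the high-voltage-activated pores, Cacna1a, the P/Q type channel of presynaptic terminals, rose in all 3 comparisons. Its values in the authors' deposited table were 0.28 ± 0.069 in 16T, 0.23 ± 0.068 in KP1 and 0.78 ± 0.083 in KP22 (adjusted p = 1.2e-19). Cacna1e, the R type pore, rose in 16T (0.50 ± 0.084) and in KP22 (0.63 ± 0.12) and had -0.15 ± 0.085 in KP1, per the authors' deposited table. The N type gene Cacna1b was the 1 channel gene with opposite calls in the knockdown lines (4.54% of all features): 0.29 ± 0.05 in 16T and -0.14 ± 0.048 in KP1 in the authors' deposited table. The called changes of L type channels were small: Cacna1c rose in 16T (0.25 ± 0.054) and KP22 (0.16 ± 0.055), and Cacna1d fell in KP1 (-0.44 ± 0.14), per the authors' deposited table. Cacna1d had 0.57 ± 0.33 in KP22, without a call. Cacna1f, the L type pore of photoreceptors, had a mean of 12.8 and no adjusted p in the knockdown lines. Where the authors' Wald score was read against Student's t on 6 degrees of freedom, the residual number for 12 samples in 6 groups, the calls of Cacna1a, Cacna1b, Cacna1d and Cacna1g in KP1 and of Cacna1c in KP22 were lost.

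All 4 alpha2delta genes changed in each comparison, where 45.3% of all features did in 16T, 37.2% in KP1 and 38.4% in KP22, and 15.1% in all 3. These proteins sit outside the membrane, raise the amount of channel at the cell surface, and include the binding sites of the gabapentinoid drugs. Cacna2d4 (chromosome 6, 119236526 to 119352407, mm10; mean 125), an alpha2delta gene known from the retina, rose by 3.51 ± 0.38 in 16T (11.4-fold, adjusted p = 1.12e-18) and by 2.15 ± 0.30 in KP1 (4.44-fold, adjusted p = 1.1e-11) in the authors' deposited table. In KP22 with cDNA it fell to 0.337 times the level with empty vector (-1.57 ± 0.28, adjusted p = 2.07e-07), per the authors' deposited table. Its directions were thus opposite where Nfib was lowered and where it was raised.

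Cacna2d1 (chromosome 5, 15934691 to 16374511, mm10), the most abundant of the channel genes, moved the same way with smaller steps in the knockdown lines. The authors' deposited table gave it 0.51 ± 0.034 in 16T (1.42-fold), 0.27 ± 0.034 in KP1 (1.21-fold) and -1.03 ± 0.038 in KP22 (0.490-fold, adjusted p = 7.24e-161). Cacna2d3 (chromosome 14) rose in all 3 comparisons, by 0.83 ± 0.12 in 16T, 0.73 ± 0.11 in KP1 and 0.78 ± 0.12 with cDNA, per the authors' deposited table. Cacna2d2 (chromosome 9), whose loss causes ataxia in the ducky mouse, fell in all 3: to 0.501 times its control in 16T (adjusted p = 1.23e-18), to 0.692 times in KP1 and to 0.484 times in KP22, per the authors' deposited table. In levels per kb over all libraries the order was Cacna2d1 (3799), Cacna2d3 (373), Cacna2d2 (221) and Cacna2d4 (21.5), so the gene that changed most was the least abundant of the 4.

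Beta subunits are cytoplasmic and bind the alpha1 pore. Cacnb3, the most abundant, rose in all 3 comparisons, by 0.43 ± 0.056 in 16T, 0.37 ± 0.055 in KP1 and 0.28 ± 0.056 in KP22, per the authors' deposited table. Cacnb2 rose in KP22 (0.90 ± 0.12, adjusted p = 6.82e-13) and fell slightly in KP1 (-0.25 ± 0.10) in the authors' deposited table. Cacnb1 rose in KP1 (0.32 ± 0.12) and fell in KP22 (-0.35 ± 0.13), and Cacnb4 passed no test, with values of -0.24 ± 0.19, -0.20 ± 0.18 and 0.00 ± 0.23 in 16T, KP1 and KP22, per the authors' deposited table. The t reference removed the Cacnb1 calls and the KP1 call of Cacnb2.

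Of the gamma genes, most of which encode auxiliary proteins of AMPA-type glutamate receptors, Cacng5 had the largest change. It fell in KP1 to 0.418 times the level with control shRNA (-1.26 ± 0.14, adjusted p = 4.26e-17) and in 16T by 0.42 ± 0.15, per the authors' deposited table, and had -0.25 ± 0.26 in KP22. Cacng7 and Cacng4 rose in 16T (0.61 ± 0.095 and 0.33 ± 0.11) in the authors' deposited table. No gamma gene was called in KP22, where 7 were tested, and the SE of Cacng7 there was 0.42, against 0.095 in 16T, per the authors' deposited table. The 16T calls of Cacng4 and Cacng5 were lost on the t reference.

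Of the sodium channel genes tested in 16T, 4 of 7 were called higher and 1 lower. All tested features were higher in 20.0% and lower in 25.3%. KP1 had 1 higher call among 7 (17.6% of all features), and KP22 had 1 higher (19.5%) and 5 lower (18.8%) among 11. Scn3a, an alpha subunit gene of embryonic neurons (chromosome 2, 65457118 to 65567492, mm10), fell in KP22 with cDNA to 0.324 times the level with empty vector (-1.62 ± 0.18, adjusted p = 4.09e-19) in the authors' deposited table. It rose in 16T by 0.40 ± 0.065 and had 0.05 ± 0.064 in KP1, per the authors' deposited table. Scn9a, the sodium channel gene of nociceptive neurons, had -1.06 ± 0.11 in KP22 (adjusted p = 2.36e-19), a rise of 0.53 ± 0.10 in 16T and 0.16 ± 0.11 in KP1 in the authors' deposited table. Scn7a, the gene of an atypical sodium-sensing channel, was near the limit of detection (mean 9.10) and fell in KP22 by 1.46 ± 0.50 in the authors' deposited table.

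These genes lie together on chromosome 2 between 65457118 and 66784910 (mm10), a stretch that also holds Scn1a and Scn2a1. The stretch was bounded by Scn3a and Scn7a after their values were seen. Of 9 genes with a single name there, 5 fell in KP22 (18.8% of all features) and 0 rose (19.5%). They were Scn3a, Scn9a, Scn7a, Scn2a1 (-0.86 ± 0.31, adjusted p = 0.0214) and the non-channel gene Csrnp3 (-1.31 ± 0.50, adjusted p = 0.0288, mean 24.9), per the authors' deposited table. Scn3a, Scn9a and Scn7a were known to have fallen when the stretch was set, so the count cannot be weighed against the shares of all features. The KP22 calls of Scn3a and Scn9a held on the t reference, which was not read for Scn7a, Scn2a1 and Csrnp3. Scn2a1 was outside the symbol rule. The other genes of the stretch were not called in KP22. Galnt3 (0.17 ± 0.17) and Ttc21b (0.18 ± 0.082), which lie between genes that fell, had positive values, and Gm13629 had -0.33 ± 0.46. Scn1a, the main sodium channel gene of inhibitory interneurons, had -0.30 ± 0.20 in KP22. It rose by 0.69 ± 0.17 in KP1 (adjusted p = 0.000311), per the authors' deposited table.

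On other chromosomes, Scn8a, the gene of the channel at nodes of Ranvier, fell by 0.25 ± 0.066 in 16T and 0.26 ± 0.067 in KP22, per the authors' deposited table. Scn3b, which encodes a beta subunit, rose in 16T (1.21 ± 0.27, 2.31-fold, adjusted p = 4.5e-05), against -0.03 ± 0.26 in KP1 and -0.13 ± 0.32 in KP22, per the authors' deposited table. Scn2b fell in KP22 (-1.35 ± 0.40) at a mean of only 3.29, per the authors' deposited table, and Scn4a, of skeletal muscle, passed no test.

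Of the pacemaker channel genes, Hcn2 rose in 16T (0.94 ± 0.071, 1.92-fold, adjusted p = 4.72e-38), while its values in the authors' deposited table were 0.08 ± 0.07 in KP1 and -0.06 ± 0.073 in KP22. Hcn4, the sinoatrial form, rose more in KP1 (0.72 ± 0.073) than in 16T (0.20 ± 0.07) and had 0.03 ± 0.071 in KP22, per the authors' deposited table. Hcn3 fell in KP1 (-0.36 ± 0.081) and rose in KP22 (0.29 ± 0.082) in the authors' deposited table. The 16T call of Hcn4 was lost on the t reference.

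Among TRP genes the largest change was a fall of Trpc4, which encodes a receptor-operated calcium-permeable channel (chromosome 3, 54156057 to 54315855, mm10; mean 238). It fell to 0.154 times the level with control shRNA in KP1 (-2.70 ± 0.23, adjusted p = 6.04e-29) and to 0.355 times in 16T (-1.49 ± 0.24, adjusted p = 2.98e-09), with 0.27 ± 0.21 in KP22, per the authors' deposited table. Its relative Trpc1 fell in KP22, to 0.495 times the level with empty vector (adjusted p = 0.0177), per the authors' deposited table. Trpc1 had 0.05 ± 0.48 in 16T and -0.59 ± 0.50 in KP1 in the authors' deposited table. The Trpc2 exons also belong to Xntrpc in the GENCODE annotation over 100% of their length, so its values (0.15 ± 0.11, 0.17 ± 0.11 and -0.02 ± 0.11 in 16T, KP1 and KP22 in the authors' deposited table) cannot be assigned to either gene.

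Trpm4, which encodes a monovalent cation channel opened by intracellular calcium, rose in both knockdown lines. Its values in the authors' deposited table were 0.96 ± 0.14 in 16T (1.95-fold, adjusted p = 3.24e-10), 1.13 ± 0.16 in KP1 (2.19-fold, adjusted p = 6e-11) and 0.03 ± 0.11 in KP22. Trpm7, a channel joined to a protein kinase and the most abundant TRP gene per kb, fell slightly in both (-0.15 ± 0.042 in 16T and -0.17 ± 0.042 in KP1) in the authors' deposited table. Recentring the effects on the median gene removed the 16T call of Trpm7. Trpm2 and Trpm6 had no call in any comparison.

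Of the TRPV genes, Trpv2 fell in all 3 comparisons, most in KP22 with cDNA. The values were -0.28 ± 0.12 in 16T, -0.40 ± 0.11 in KP1 and -1.56 ± 0.17 for KP22 (0.340-fold, adjusted p = 4.09e-18) in the authors' deposited table. Trpv6, an epithelial calcium channel gene with a mean of 69.3, fell in KP1 (-1.10 ± 0.35, adjusted p = 0.00716) and rose in KP22 (0.85 ± 0.35, adjusted p = 0.045), per the authors' deposited table. Trpv4, an osmotically and mechanically gated channel, had a mean of 23.5 and no call. The knockdown calls of Trpv2 and both calls of Trpv6, like that of Trpc1, were lost on the t reference.

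Piezo2, which encodes the mechanically gated channel of touch receptors and of pulmonary neuroendocrine cells and sensory neurons in the airway, lies on chromosome 18 and had a mean of 987. It rose by 3.36 ± 0.13 in 16T (10.3-fold, adjusted p = 1.3e-141) and by 1.14 ± 0.23 in KP1 (2.20-fold, adjusted p = 8.08e-06), per the authors' deposited table. In KP22 with Nfib cDNA it fell to 0.413 times the level with empty vector (-1.27 ± 0.19, adjusted p = 1.47e-10) in the authors' deposited table. Against a change of 0.5, the rise in 16T and the fall in KP22 held (adjusted p = 3.6e-102 and 0.00081) and the rise in KP1 did not (0.13), per the authors' deposited table. Piezo1, the more abundant gene per kb and the form of vessels and red cells, rose in 16T by 0.35 ± 0.074 and had 0.09 ± 0.072 in KP1 and 0.12 ± 0.073 in KP22, per the authors' deposited table.

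Set side by side, 4 channel genes rose in both knockdown lines and fell with Nfib cDNA, among them Cacna2d1, Cacna2d4 and Piezo2. That is 9.09% of the 44, against 4.76% of all features tested in the 3 comparisons. None showed the mirror image, lower in both knockdown lines and higher in KP22, which 5.33% of all features did. Another 4 genes rose in all 3 comparisons (9.09%, against 1.25%), namely Cacna1a, Cacna1g, Cacna2d3 and Cacnb3, and 2 fell in all 3 (4.55%, against 1.01%), namely Cacna2d2 and Trpv2. Without regard to KP22, 11 genes rose in both knockdown lines (25.0%, against 8.68%) and 5 fell in both (11.4%, against 9.89%). On the t reference, Cacna1a, Cacna1g, Hcn4, Cacng5 and Trpv2 left these groups.

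The mean of the knockdown effects was added to the KP22 effect, a sum that is 0 where lowering and raising Nfib moved a gene by equal amounts in opposite directions. Nfib itself did not move by equal steps (-1.08 in 16T, -1.32 in KP1 and 1.80 in KP22), and it was lowered and raised in different lines. Unequal steps of Nfib, differences between lines and unequal responses to Nfib therefore cannot be told apart in this sum. The sum departed from 0 in 27 of the 47 channel genes with a mean of at least 10 (57.4%), against 36.7% of all 15008 such features. It was largest in size for Trpv2 (-1.90 ± 0.19, adjusted p = 5.85e-22), Trpc4 (-1.83 ± 0.27) and Cacna2d2 (-1.81 ± 0.14). It was 1.56 ± 0.15 for Cacna2d3. For Piezo2 it was 0.97 ± 0.23 and for Cacna2d4 1.26 ± 0.37, the mean of their knockdown rises exceeding their falls with cDNA. For Piezo2 this held through 16T (3.36), as its rise in KP1 (1.14) was smaller than its fall in KP22 (-1.27). For Cacna2d1 it was -0.64 ± 0.045, the fall with cDNA being the larger.

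**Figure D4:**
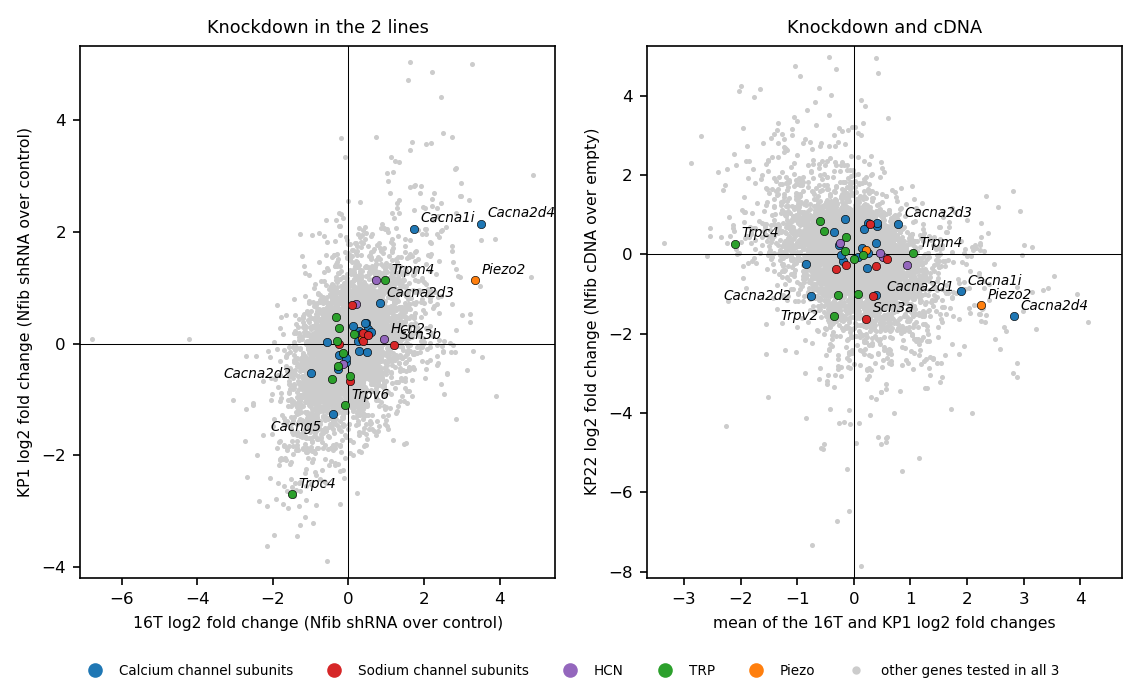
Log2 fold changes of the channel genes (coloured by family, some named) over all other genes tested in the 3 comparisons (grey): on the left KP1 against 16T, on the right KP22 against the mean of 16T and KP1. Cacna2d4 and Piezo2 lie far right in both panels and below 0 on the right, and Trpc4 lies far left.

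The size of the knockdown effect differed between 16T and KP1 in 19 of the 47 channel genes (40.4%), against 29.4% of all such features. The largest difference, 16T minus KP1, was that of Piezo2 at 2.22 ± 0.27 (adjusted p = 3.15e-15). Cacna2d4 followed at 1.36 ± 0.49 (adjusted p = 0.0207), then Scn3b at 1.24 ± 0.38, and Trpc4 at 1.21 ± 0.33, which fell further in KP1. Hcn2 (0.86 ± 0.10), Cacng5 (0.84 ± 0.21) and Cacna1e (0.64 ± 0.12) also differed. More positive in KP1 were Trpm2 (-0.53 ± 0.18), Hcn4 (-0.52 ± 0.10) and Cacna2d2 (-0.47 ± 0.16). No difference was shown for Cacna1i (-0.33 ± 0.56) and Trpm4 (-0.17 ± 0.22). On the t reference 6 of the 19 differences remained, those of Cacna1b, Cacna1e, Cacna2d1, Hcn2, Hcn4 and Piezo2.

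For some channel genes further exons were counted apart, under a name joined with itself where merged exons carried that name more than once, which gives a reading of the same libraries on other bases. With a mean of at least 10 in the joined feature, 15 such features existed. In the authors' deposited table their sign was that of the gene's main feature in 13 of 15 in 16T, 13 of 15 in KP1 and 12 of 15 in KP22. Where the main feature was called it was so in 11 of 12, 10 of 10 and 9 of 9. The joined exons of Trpc4 had -1.32 ± 0.26 in 16T and -3.12 ± 0.26 in KP1, those of Cacna2d1 -1.01 ± 0.19 in KP22 and the larger joined feature of Scn3b, which held more counts than its main feature (mean 449 against 125), 1.30 ± 0.14 in 16T, per the authors' deposited table. The exception among called values was Cacna1a in 16T, at -0.04 ± 0.18 in a joined feature of 1012 bases, per the authors' deposited table. Strand was not stated for the counting, and 3.61% of the Cacna1a exon bases lie in exons of its antisense gene Gm16183 and 3.98% of those of Piezo1 in exons of Ctu2, by GENCODE. Overlap with a gene on the other strand was larger for Cacnb4 (16.8%, A430018G15Rik) and Cacnb2 (5.69%, Gm10849), and some further channel genes had it too. Exons joined with a neighbouring gene were left out: those of Cacna1h with Tpsg1, Scn9a with Gm13629, Piezo1 with Ctu2 and Cacna1d with Chdh. The last, of 5895 bases, had 2.50 ± 0.42 in KP22 (adjusted p = 1.84e-08), per the authors' deposited table. This change cannot be assigned to Cacna1d or to Chdh.

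**Figure D5:**
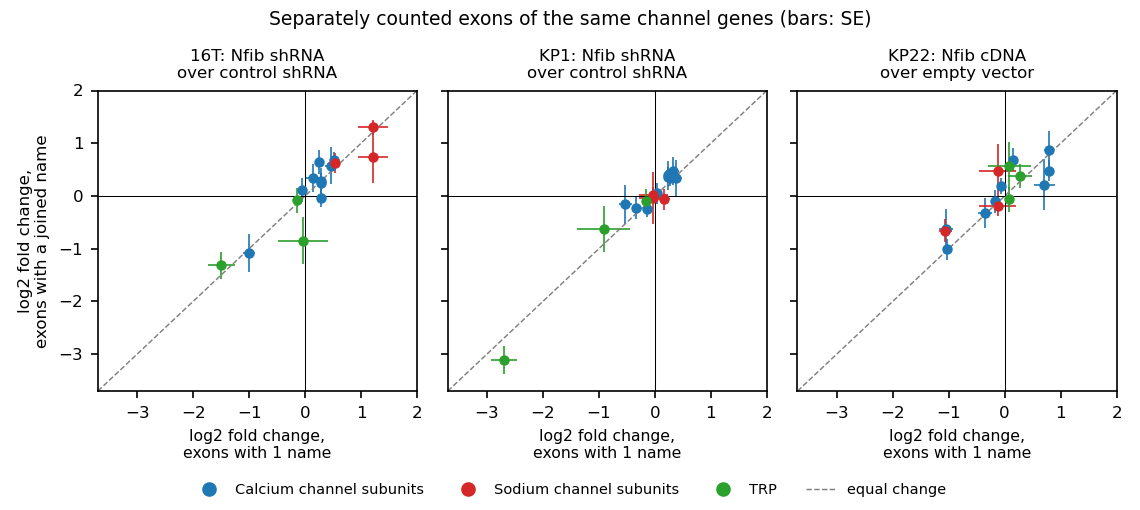
Log2 fold change of exons with a joined name against that of the same gene's exons with a single name, in 16T, KP1 and KP22; bars give the SE and the dashed line marks equal change. Trpc4 lies lowest in KP1 on both readings, at -2.70 and -3.12.

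To show the start-site sequence of genes that moved together in both knockdown lines, the 250 bases before the annotated start of Cacna1i, which rose, and of Trpc4, which fell, are given here from RefSeq (GRCm38.p6, the build of mm10), 5′ to 3′ on the gene's strand. Capitals mark the arm TTGGC of the NFI binding palindrome or its reverse complement GCCAA.
Cacna1i (chr15:80286988-80287237, + strand): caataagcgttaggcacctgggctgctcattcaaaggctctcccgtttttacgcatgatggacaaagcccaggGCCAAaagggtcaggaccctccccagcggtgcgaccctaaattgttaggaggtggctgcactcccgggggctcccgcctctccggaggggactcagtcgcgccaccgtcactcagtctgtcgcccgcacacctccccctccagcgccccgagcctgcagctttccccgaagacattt
Trpc4 (chr3:54155807-54156056, + strand): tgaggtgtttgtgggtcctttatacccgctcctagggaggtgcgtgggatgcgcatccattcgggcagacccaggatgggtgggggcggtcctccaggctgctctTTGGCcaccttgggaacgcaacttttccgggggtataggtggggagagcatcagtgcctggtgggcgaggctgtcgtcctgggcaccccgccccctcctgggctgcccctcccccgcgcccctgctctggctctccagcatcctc
The arm began 177 bases before the start of Cacna1i, on the minus strand, and 145 bases before that of Trpc4, on the plus strand. Of 65 such windows of 51 channel genes, 28 held the arm on either strand (43.1%), and of 32851 windows over the genome 41.5% did. The full palindrome, TTGGC followed by GCCAA with a gap of 5 bases, was in none of the 65 windows and in 12 of the 32851 (0.0365%). A match is a description of the letters, not a binding site. Cacna2d4 and Piezo2 also changed by at least 1 in both knockdown lines. No window was available for Cacna2d4, and that of Piezo2 is not reported here.

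Genes of calcium handling and channel partners that are not channel genes as defined above, 77 in number, were read beside them. In 16T, of 68 tested, 28 were higher (20.0% of all features) and 17 lower (25.3%). In KP1 17 were higher (17.6%) and 15 lower (19.6%), and in KP22, of 73 tested, 11 were higher (19.5%) and 32 lower (18.8%). Medians of their log2 effects were 0.01, 0.01 and -0.11. The largest changes in 16T were rises of Pkd2l1 (2.24 ± 0.18), a polycystin cation channel gene, Slc24a3 (2.19 ± 0.18), a sodium-calcium-potassium exchanger gene, Itpr3 (2.15 ± 0.10), an inositol trisphosphate receptor gene, and Cabp7 (2.02 ± 0.46), a calcium-binding protein gene, per the authors' deposited table. In KP1 the authors' deposited table gave Slc8a3, a sodium-calcium exchanger gene, -2.50 ± 0.19, with rises of Pkd2l1 (2.21 ± 0.18), the exchanger gene Slc24a2 (1.86 ± 0.22) and the calcium pump gene Atp2a3 (1.64 ± 0.091). In KP22 with cDNA, Itpr3 had -3.90 ± 0.10, the ryanodine receptor gene Ryr3 -3.60 ± 0.17, the lysosomal channel gene Mcoln3 -2.999 ± 0.48 and Rrad, which encodes a small GTPase that inhibits calcium channels, -2.83 ± 0.42, per the authors' deposited table. Itpr3 thus rose in both knockdown lines, by 2.15 ± 0.10 in 16T and 1.30 ± 0.13 in KP1, and fell in KP22, as Cacna2d4 and Piezo2 did, per the authors' deposited table. Mcoln3 and Cabp7 had low means of 15.2 and 29.0, against 1959 for Itpr3. Mcoln3 had no adjusted p in 16T and KP1.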

How the data were processed

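RNA of 12 samples was read from 2 files deposited by the authors. The tools named in the submitters' processing notes are TopHat, bedtools, DESeq and DESeq2, on mm10, with their versions not given in the sources used here. Per the file headers, the deposited table of 28112 features holds the mean normalized count as a signal, log2 fold changes with their SEs, a Wald score, p-values and adjusted p-values for no change and for a change of 0.5. The other deposited file lists 211975 exon intervals, used for lengths and positions. The largest SE was 0.521, and it was 0.18 for Scn10a at a mean of 0.199, so low genes look shrunken towards 0 and their changes may be understated. The 23226 features with a single name were used.

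The authors' adjusted p-values below 0.05 were the test. The 16T minus KP1 difference, and the knockdown mean plus the KP22 effect, were computed from the effects with errors added as independent. They used a normal reference and Benjamini-Hochberg adjustment over 15008 features with a mean of at least 10, in Python 3.11.15 with scipy 1.17.1. The computation was tried on simulated effects with independent normal errors of the deposited SEs. Those share the assumptions of the test, so they cannot show whether the normal reference holds for so few samples. The design text speaks of duplicates without naming separate cultures, so p-values cover the spread among these samples alone, which may be technical. Library totals are unknown, so precision is given by the SEs. The members and lists were chosen with earlier results of these data known. Genes that changed by at least 1 and the most abundant gene of each role group were to be named, and others were named after their values were seen. The alternatives tried were other filters on the mean, Student's t on 6 degrees of freedom, recentring, the test against 0.5, a minimum change of 1 and, chosen after seeing the data, joined exons. Some genes stay in the counts but are not reported here by name.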

Additional observations from a re-analysis of the deposited data

Results flagged for a closer look

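The knockdown effect differed between 16T and KP1, by the test of the difference itself on a normal reference, in the channel genes that follow. Values are the 16T minus the KP1 log2 fold change. The effect was more positive in 16T for Piezo2 (2.22), Cacna2d4 (1.36), Scn3b (1.24), Trpc4 (1.21), Hcn2 (0.86), Cacng5 (0.84) and Cacna1e (0.64). It was also more positive in 16T for Cacna1b (0.42), Cacng7 (0.40), Scn3a (0.35), Cacna1h (0.28), Piezo1 (0.26), Cacna2d1 (0.24) and Cacna1c (0.21). It was more positive in KP1 for Trpm2 (-0.53), Hcn4 (-0.52), Cacna2d2 (-0.47) and Scn8a (-0.24). On Student's t with 6 degrees of freedom, only the differences of Cacna1b, Cacna1e, Cacna2d1, Hcn2, Hcn4 and Piezo2 remained. Trpm2 was called in neither line (adjusted p = 0.0686 in 16T and 0.0931 in KP1, authors' test). Nfib itself was at 47.2% of its control in 16T and 40.0% in KP1.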

How the results depend on the processing

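Other filters on the mean kept every count of channel genes called in a comparison, or different between effects, within 1.5 times its value. Requiring a change of at least 1 left 4 genes higher and 1 lower for 16T, 5 and 3 for KP1, and 0 and 11 for KP22. The authors' test against 0.5 left 4 higher and 2 lower for 16T, 4 and 2 for KP1, and 2 and 7 for KP22. On Student's t with 6 degrees of freedom, 6 genes were lower in KP1 in place of 11, and 6 in place of 19 differed between the knockdown lines. Differences of at least 1 numbered 4 between the knockdown lines, and 13 sums of knockdown and cDNA effects were of at least 1. The fewer calls follow from the stricter rules. Of 116 values of 40 genes, 17 lost the call on the t reference, 56 in the test against 0.5, 6 on recentring (Cacna1b and Cacnb2 in KP1, Cacna1c and Trpv6 in KP22, Trpm7 and Trpv2 in 16T) and 2 without a filter, and Cacna1i in KP22 gained it on recentring. In joined exons 18 lost the call and 1 turned, Cacna1a in 16T (-0.036 in place of 0.28); the cause was not tested. No paired analysis was possible because the table holds no values per sample, and for the same reason no sample could be left out in turn. Depth is unknown, and the SE of 0.52 reached by genes with means near 10 limits what they could show.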
